A study of Mus musculus with 12 samples.

Results

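The 42 genes described here carry cells through DNA replication and mitosis, and they were read through the accessible chromatin assigned to them. A region belonged to the set when it overlapped the protein-coding RefSeq body of 1 of the 42 genes, or when that body was the nearest one within 100 kb. This gave 251 of the 188262 regions measured, and every one of the 42 genes had at least 1. The number per gene ran from 1, at Mcm4, Pcna, Ccna2, Ccnb1, Orc1, Aurka and Cdc20, to 21 at Mki67. Of the 251 regions, 57 lay at a start site, 74 in a gene body and 120 outside the body. Distance alone links a region to a gene here, and whether the region acts on that gene was not measured.

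The assay was ATAC-seq: a transposase, Tn5, cuts DNA where chromatin is open and leaves sequencing adapters behind, so that the reads over a region count such cuts. The 12 libraries fall into 4 groups of 3: KO MPP, WT MPP, KO LT-HSC and WT LT-HSC. LT-HSC are long-term haematopoietic stem cells, and MPP are their multipotent progenitor offspring. KO mice had the genotype Phf6-/Y Rosa26+/Cre-ERT2 and WT mice Phf6f/Y Rosa26+/+, that is a floxed Phf6 allele with no Cre. Phf6 is an X-linked gene for a chromatin-associated PHD finger protein. Cre-ERT2, a tamoxifen-activated recombinase, was carried by all KO mice and by none of the WT mice, so an effect of the recombinase and one of Phf6 loss cannot be told apart. LT-HSC were taken 8 weeks after tamoxifen, 20000 sorted cells per library, from 3 mice of each genotype. How the MPP were prepared, their time after tamoxifen included, was not given in the sources used here, and neither was whether LT-HSC and MPP of 1 number came from the same animal.

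Before S phase the origin recognition complex, CDC6 and CDT1 load the MCM2-7 helicase on origins, and CDC45 and the GINS complex then activate it. E2F factors, held back by RB in resting cells, drive transcription of most replication genes and of cyclin E, while mitotic genes such as Plk1, Cdc20 and Ccnb1 are repressed in resting cells by the DREAM complex and peak later in the cycle. LT-HSC are mostly quiescent, and MPP cycle more often.

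Counts per region were turned into CPM, that is counts per 1000000 counts of the scaled library, and the total per library ran from 22665988 to 48547234. The quasi-likelihood test of edgeR covered 186373 regions, among them 250 of the 251, and a region is called when its adjusted p is under 0.05. The share of counts at gene ends, meaning regions within 1 kb of a gene end or start site, was 45.35 to 45.83% in KO MPP, 43.33 to 45.35% in WT MPP, 43.55 to 44.02% in KO LT-HSC and 42.08 to 43.23% in WT LT-HSC. It therefore moved with genotype and with population, and its part in the differences given here was not tested beyond a fit with that share as a covariate. Gene-end regions of 8 LT-HSC marker genes summed to 137 to 144 CPM in KO MPP, 125 to 132 CPM in WT MPP, 195 to 201 CPM in KO LT-HSC and 178 to 186 CPM in WT LT-HSC. Those of 3 MPP marker genes summed to 101 to 109 CPM in KO MPP, 116 CPM in WT MPP, 66.0 to 69.1 CPM in KO LT-HSC and 68.7 to 71.4 CPM in WT LT-HSC, so both lists stood with their labelled population. Those of 6 myeloid marker genes summed to 70.1 to 81.2 CPM in KO MPP, 65.4 to 72.5 CPM in WT MPP, 32.3 to 33.7 CPM in KO LT-HSC and 30.9 to 33.3 CPM in WT LT-HSC. Those of 3 NK cell marker genes stayed at 1.70 CPM or lower in each library. Those of 5 erythroid marker genes summed to 31.4 to 32.7 CPM in KO MPP, 26.2 to 27.3 CPM in WT MPP, 39.5 to 42.6 CPM in KO LT-HSC and 38.5 to 40.1 CPM in WT LT-HSC. Those of 3 endothelial marker genes summed to 38.6 to 41.5 CPM in KO MPP, 33.9 to 37.7 CPM in WT MPP, 52.2 to 54.1 CPM in KO LT-HSC and 47.5 to 54.0 CPM in WT LT-HSC. The erythroid, endothelial and LT-HSC sums thus lay higher in KO MPP than in WT MPP without overlap, the MPP marker sum lay lower there, and in LT-HSC the LT-HSC marker sum lay higher in KO. The part of these in the genotype differences was not tested. T cell markers (4 of 5 genes had a region) summed to 46.3 to 56.6 CPM in KO MPP, 47.2 to 57.5 CPM in WT MPP, 36.3 to 38.9 CPM in KO LT-HSC and 36.1 to 37.2 CPM in WT LT-HSC, and B cell markers (5 genes) to 18.3 to 21.7, 21.5 to 22.4, 21.5 to 24.8 and 22.3 to 23.7 CPM in the same order. In bulk libraries a change in the share of cells that are open at a region and a change in openness per cell cannot be told apart. None of the 6 tested regions in the Phf6 body was called lower in KO by edgeR, in MPP or in LT-HSC. The region at chrX:52913820-52914221 was called higher in KO MPP (log2 fold change 0.79, edgeR adjusted p = 0.00481), with 2.35 to 2.67 CPM in KO MPP, against 1.40 to 1.49 CPM in WT MPP. The region at the start of Phf6 held 27.7 to 29.7 CPM in KO MPP, 30.6 to 32.4 CPM in WT MPP, 26.5 to 28.8 CPM in KO LT-HSC and 25.4 to 27.3 CPM in WT LT-HSC. The files do not say which part of Phf6 was deleted, so these regions do not check the genotype labels.

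For each gene, the strongest region within 1 kb of its start site is called its gene start below. For Mcm4, Ccna2, Ccne2, Gins1, Gins2 and Aurkb the region at a gene end took that place. The start region of 10 genes was also assigned to a neighbour, namely those of Orc1 (with Prpf38a), Orc6 (Vps35), Mcm4 (Prkdc), Mcm7 (Ap4m1), Cdc45 (Ufd1), Pcna (Cds2), Fen1 (Tmem258), Lig1 (Zswim9), Cdk2 (Pmel) and Aurka (Cstf1), and its reads cannot be split between both genes.

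Promoter sequences from RefSeq (GRCm38.p6) were at hand for 36 of the 42 genes and were searched on both strands, over the 250 bases before the start site, for 3 kinds of motif. These were E2F motifs (TTTGGCGC, TTTCCCGC or GGCGGGAA, of which the last pair can overlap), the CHR motif of mitotic promoters (TTTGAA) and CCAAT boxes (CCAAT), where the factor NF-Y binds. An E2F motif stood in 8 of the 36 windows (22.2%), against 3.51% of 21263 promoter windows of all genes. CCAAT stood in 28 of 36 (77.8%), against 35.4% of all windows, and TTTGAA in 10 of 36 (27.8%), against 14.5%. A match is a run of letters and not a bound site. The 150 bases before the start site are given here for 5 genes that the results turn on, read on the strand of the gene, with each motif in capitals (a match on the other strand appears as its reverse complement, such as ATTGG for CCAAT): Mcm6, with a pair of TTTGGCGC motifs, and Ccne1, both more open in MPP; Top2a and Plk1, both more open in KO; and Cdc20, a gene with CCAAT and TTTGAA whose start was called in no comparison. In the Ccne1 stretch none of these motifs was found, which says only that these letters are not in it.
Mcm6 (chr1:128359706-128359855, minus strand): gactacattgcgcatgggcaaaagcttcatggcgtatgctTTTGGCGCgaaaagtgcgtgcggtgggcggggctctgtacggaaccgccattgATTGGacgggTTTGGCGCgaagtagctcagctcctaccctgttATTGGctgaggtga
Ccne1 (chr7:38107491-38107640, minus strand): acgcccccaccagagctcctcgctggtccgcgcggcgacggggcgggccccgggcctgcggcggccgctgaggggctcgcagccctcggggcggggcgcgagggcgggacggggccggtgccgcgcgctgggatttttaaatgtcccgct
Top2a (chr11:99024190-99024339, minus strand): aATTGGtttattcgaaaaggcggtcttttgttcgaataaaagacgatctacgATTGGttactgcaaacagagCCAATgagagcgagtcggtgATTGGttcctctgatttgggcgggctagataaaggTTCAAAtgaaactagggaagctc
Plk1 (chr7:122159285-122159434, plus strand): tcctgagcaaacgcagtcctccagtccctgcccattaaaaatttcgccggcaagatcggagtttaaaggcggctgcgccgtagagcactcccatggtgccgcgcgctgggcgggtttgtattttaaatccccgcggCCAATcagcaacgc
Cdc20 (chr4:118437344-118437493, minus strand): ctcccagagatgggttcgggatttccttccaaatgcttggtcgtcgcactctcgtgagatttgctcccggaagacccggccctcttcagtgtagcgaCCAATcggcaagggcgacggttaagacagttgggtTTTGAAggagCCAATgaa

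The 42 gene starts were open in all 4 groups. Their mean level over the 12 libraries ran from 7.20 CPM at E2f2 to 127 CPM at Gins2, with a median of 37.6 CPM, against a median of 6.95 CPM over all gene-end regions tested. Per kb of region the range was 15.8 CPM per kb at E2f2 to 298 CPM per kb at Gins2 (median 83.4). The other 209 member regions were far weaker, with a median near 2 CPM. Summed over the 42 starts, the level was 1965, 1908 and 1904 CPM in KO MPP, 1844, 1824 and 1728 CPM in WT MPP, 1724, 1699 and 1708 CPM in KO LT-HSC, and 1549, 1591 and 1566 CPM in WT LT-HSC. KO lay above WT in both populations and MPP above LT-HSC in both genotypes, without overlap in either. The share of counts at all gene ends also lay higher, without overlap, in KO than in WT LT-HSC and in MPP than in LT-HSC of both genotypes. Between KO MPP and WT MPP that share met at 45.35%. This separation is thus in part shared by gene ends as a whole.

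**Figure D1:**
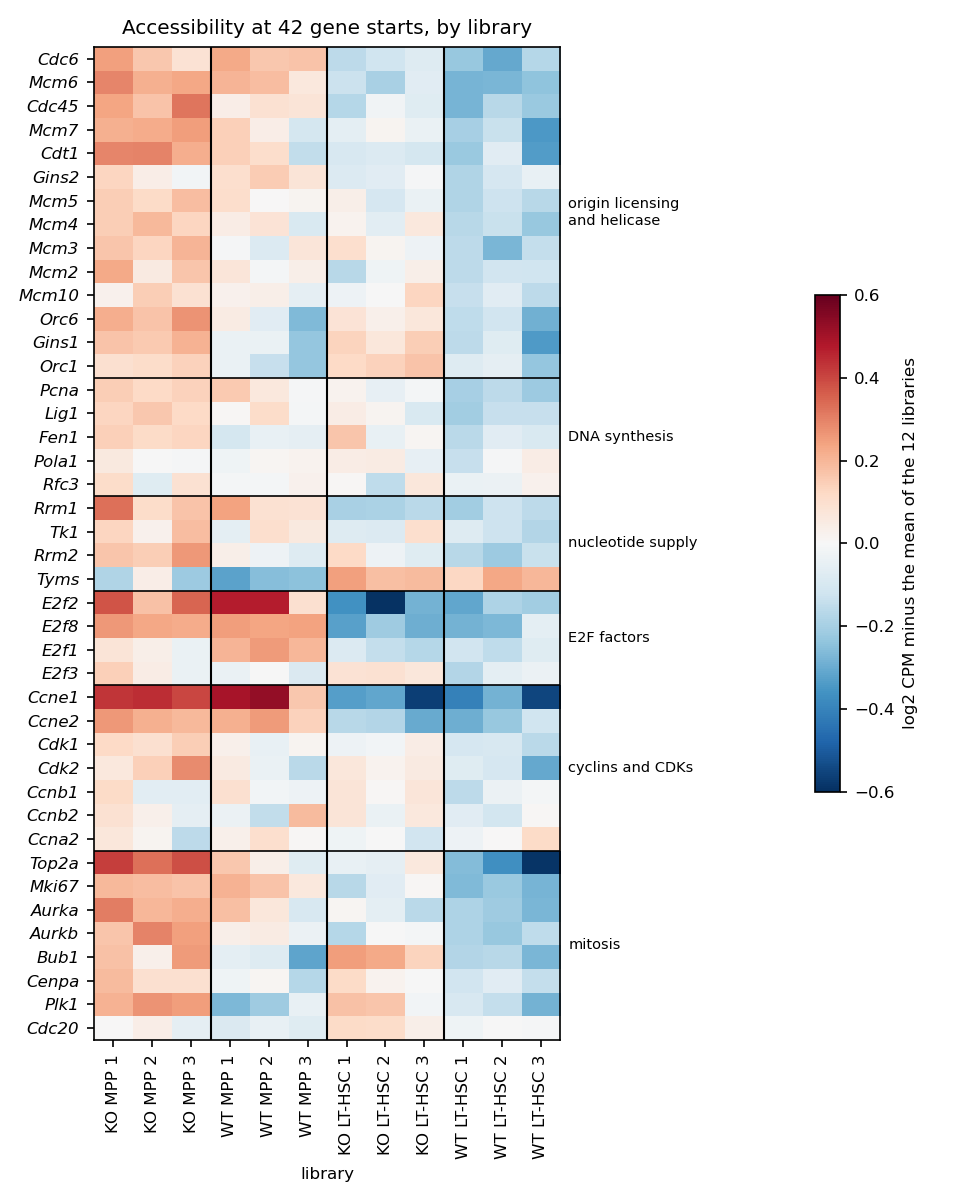
Level at the start of each of the 42 genes (rows, grouped by role) in each of the 12 libraries (columns), as log2 CPM minus the mean of the row. Most rows run warm in KO MPP and cool in WT LT-HSC, Tyms runs the other way, and Ccna2, Ccnb1, Ccnb2 and Cdc20 vary little.

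The first comparison asks how these genes differ between progenitors and stem cells. More member regions were higher in MPP than were lower. Of 250 tested, 105 were higher and 40 lower in KO MPP than in KO LT-HSC, with a median log2 fold change of 0.18, where the whole set of tested regions split into 33.3% higher and 34.4% lower. In WT cells 105 were higher and 39 lower (median 0.21), beside 34.6% and 35.2% of all tested regions. At the 42 starts, 22 were higher and 1 lower in KO, and 23 higher and 1 lower in WT, where gene-end regions as a whole had 31.0% higher and 34.3% lower in KO and 31.9% and 36.4% in WT. Strong gene-end regions lean toward MPP on their own: of 13638 gene-end regions within the level range of the 42 starts, a background chosen after the data were seen, 39.1% rose and 24.0% fell in KO, and 41.1% rose and 25.3% fell in WT. The median log2 fold change of the starts was 0.15 in KO and 0.17 in WT, and an offset that removes any trend with level left 0.0465 in KO, with 15 starts higher and 7 lower, and 0.0484 in WT, with 13 higher and 6 lower. When the gene-end share of each library entered as a covariate, 7 starts were higher and 0 lower in KO, and 11 higher and 1 lower in WT. The starts of Cdc6, Mcm6, Cdc45, E2f8, Ccne1 and Ccne2 were called higher in MPP in both genotypes under each alternative run.

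Among the 14 genes of origin licensing and the helicase, 9 starts (64.3%) were higher in KO MPP and 10 (71.4%) in WT MPP, and 0 lower. Of gene-end regions in the level range of the starts, 39.1% were higher in KO MPP and 41.1% in WT MPP. The Mcm6 start (chr1:128359490-128359932), at a subunit of the MCM2-7 helicase, held 56.4, 53.4 and 54.1 CPM in KO MPP and 53.0, 52.3 and 48.0 CPM in WT MPP, against 42.1, 40.2 and 43.9 CPM in KO LT-HSC and 37.9, 38.1 and 38.9 CPM in WT LT-HSC. The log2 fold change of MPP over LT-HSC was 0.38 ± 0.06 in KO (SE, adjusted p = 1.59e-06) and 0.42 ± 0.06 in WT (adjusted p = 2.38e-07). All MPP libraries lay above all LT-HSC libraries of the same genotype. Cdc6, the loader of that helicase, had 52.9, 49.8 and 47.4 CPM in KO MPP and 52.1, 49.8 and 50.2 CPM in WT MPP at its start, against 40.0, 41.1 and 42.3 CPM in KO LT-HSC and 38.0, 36.1 and 39.5 CPM in WT LT-HSC. The difference was 0.28 ± 0.06 in KO (SE, edgeR adjusted p = 0.000137) and 0.42 ± 0.06 in WT (adjusted p = 2.52e-07). The starts of Cdt1, Mcm2, Mcm4, Mcm5 and Mcm7 also rose in both genotypes, by 0.15 to 0.36 in KO and by 0.16 to 0.25 in WT. Of these, Mcm4 was at 0.19 in WT and at -0.0011 with the level-dependent offset, and Cdt1 at 0.25 in WT and at -0.0042 with the covariate. Gins2, a GINS subunit called in WT alone (0.22), was at -0.0430 with that offset, and Orc6, called in KO alone (0.16), at -0.0871 with the covariate. Of 23 alternatives, the Mcm2 call was lost in 3 in KO and 7 in WT, the Mcm4 call in 5 and 2, and the Mcm5 call in 4 and 2. Orc1, which binds origins, was called in neither genotype at its start, with -0.03 ± 0.06 in KO (SE, edgeR adjusted p = 0.708) and -0.01 ± 0.06 in WT (adjusted p = 0.875).

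The larger population differences at licensing genes lay away from the starts. Cdc45, which travels with the helicase, has a pair of intragenic regions that moved in opposite directions. The one 2.8 kb inside the gene (chr16:18808965-18809367) had 3.74, 3.90 and 4.56 CPM in KO MPP and 3.86, 3.46 and 2.88 CPM in WT MPP, against 0.248, 0.318 and 0.0891 CPM in KO LT-HSC and 0.516, 0.112 and 0.318 CPM in WT LT-HSC. Its log2 fold change was 4.13 ± 0.29 in KO (SE, edgeR adjusted p = 4.62e-14) and 3.43 ± 0.26 in WT (adjusted p = 3.1e-13), and all 6 MPP libraries lay above all 6 LT-HSC libraries. The one 22.8 kb inside (chr16:18788958-18789423) fell to 4.48, 3.83 and 4.58 CPM in KO MPP and 4.18, 3.81 and 3.96 CPM in WT MPP, against 17.6, 18.2 and 16.0 CPM in KO LT-HSC and 16.1, 16.0 and 17.5 CPM in WT LT-HSC. That is a log2 fold change of -2.02 ± 0.10 in KO (SE, edgeR adjusted p = 1.54e-17) and -2.05 ± 0.10 in WT (adjusted p = 4.76e-18). The Cdc45 start, shared with Ufd1, rose by 0.33 in KO and 0.29 in WT. A region 6.6 kb upstream of Cdt1 (chr8:122561194-122561637) had 5.97 ± 0.517 CPM in KO MPP and 4.37 ± 0.521 CPM in WT MPP, against 0.804 ± 0.184 CPM in KO LT-HSC and 0.637 ± 0.158 CPM in WT LT-HSC (SD, n = 3 each). It rose by a log2 fold change of 2.87 in KO and 2.78 in WT, against 0.36 in KO and 0.25 in WT at the Cdt1 start. An intragenic region of Mcm5 at 10.3 kb (chr8:75119354-75120176) had 14.3, 12.2 and 12.8 CPM in KO MPP and 17.2, 20.1 and 14.8 CPM in WT MPP, against 2.45, 2.51 and 2.58 CPM in KO LT-HSC and 2.495, 2.02 and 2.89 CPM in WT LT-HSC. It rose by 2.38 in KO and 2.82 in WT, and the 2 populations did not overlap.

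Of the 5 DNA synthesis genes, Pcna, the sliding clamp of the polymerases, and Lig1, which seals Okazaki fragments, rose at their starts in MPP in both genotypes. The Pcna start rose by 0.15 in KO and 0.26 in WT, and the KO value was -0.0095 with the level-dependent offset. The Lig1 call in KO (0.14, edgeR adjusted p = 0.0328) was lost in 8 of 23 alternatives, 5 of them leaving out 1 library. In WT the Lig1 call (0.20) was lost in 2. Starts of Pola1 (a primase-polymerase subunit), Rfc3 (clamp loader) and Fen1 (flap nuclease) were called in neither genotype, with 0.03 ± 0.07, 0.01 ± 0.07 and 0.04 ± 0.06 in WT (log2, SE). Away from the starts, regions of Lig1 and Pola1 fell. The Lig1 region at 15.3 kb in the body (chr7:13294212-13294842) had 0.390, 0.420 and 0.593 CPM in KO MPP and 0.601, 0.646 and 0.643 CPM in WT MPP, against 7.24, 7.71 and 6.23 CPM in KO LT-HSC and 6.51, 8.40 and 5.27 CPM in WT LT-HSC. It was lower in MPP by a log2 fold change of -3.89 ± 0.20 in KO (SE, edgeR adjusted p = 4.84e-17) and -3.41 ± 0.18 in WT (adjusted p = 9.85e-17), the largest fall among member regions above the median level. A region 3.0 kb upstream of Pola1 (chrX:93634936-93635401) fell to 2.34, 3.06 and 2.24 CPM in KO MPP and 1.25, 1.48 and 1.73 CPM in WT MPP, against 5.81, 6.05 and 6.06 CPM in KO LT-HSC and 6.11, 4.69 and 5.67 CPM in WT LT-HSC, with no overlap between the populations.

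**Figure D2:**
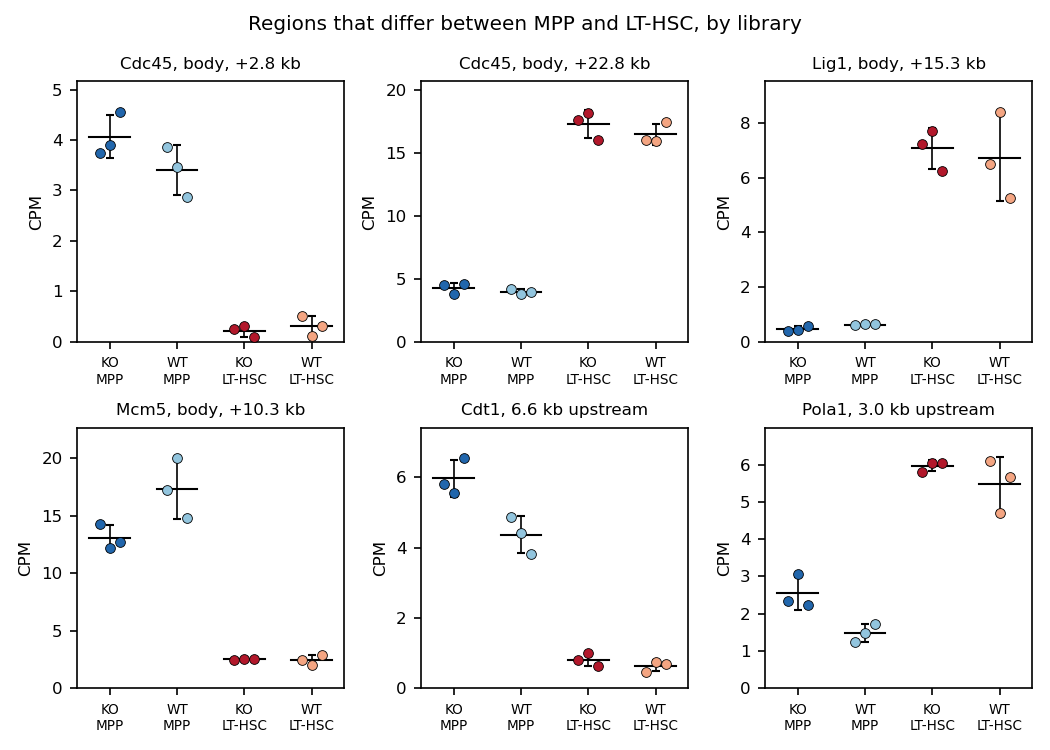
CPM of 6 member regions in each library (points), with the group mean and SD (bars), for KO MPP, WT MPP, KO LT-HSC and WT LT-HSC. The Cdc45 region at 2.8 kb, the Mcm5 region and the Cdt1 region sit low in LT-HSC, while the Cdc45 region at 22.8 kb, the Lig1 region and the Pola1 region sit lower in MPP.

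Nucleotide supply was mixed. The starts of Rrm1 and Rrm2, the subunits of ribonucleotide reductase, rose in MPP. Rrm1 rose by 0.39 in KO and 0.30 in WT and Rrm2 by 0.18 in KO and 0.15 in WT. The Rrm2 call was lost in 6 of 23 alternatives in KO and in 9 in WT, 3 and 4 of them leaving out 1 library. Tyms, the thymidylate synthase gene, was the 1 start that fell. It held 11.9, 13.9 and 11.6 CPM in KO MPP and 10.8, 11.3 and 11.4 CPM in WT MPP, against 16.0, 15.3 and 15.4 CPM in KO LT-HSC and 14.7, 15.8 and 15.5 CPM in WT LT-HSC, a log2 fold change of -0.32 ± 0.09 in KO (SE, edgeR adjusted p = 0.00151) and -0.46 ± 0.08 in WT (adjusted p = 1.37e-05). Every MPP library lay below every LT-HSC library of its genotype there. Tk1, the salvage kinase for thymidine, had 0.14 ± 0.09 in KO (SE, edgeR adjusted p = 0.166) and 0.16 ± 0.09 in WT (adjusted p = 0.0914). Downstream of Rrm2, a region at 27.0 kb rose by 2.95 in KO and 2.52 in WT, and one at 16.4 kb fell, with log2 fold changes of -1.19 in KO and -1.36 in WT.

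Of the 4 E2F genes, E2f1 and E2f2, activators of S phase genes, and E2f8, an atypical repressor, rose at their starts in MPP in both genotypes. E2f8 (chr7:48880886-48881370) had 65.1, 63.8 and 63.4 CPM in KO MPP and 64.7, 64.1 and 64.2 CPM in WT MPP, against 43.4, 46.9 and 44.4 CPM in KO LT-HSC and 44.7, 45.2 and 52.1 CPM in WT LT-HSC. Its log2 fold change was 0.51 ± 0.06 in KO (SE, edgeR adjusted p = 8.01e-09) and 0.44 ± 0.06 in WT (adjusted p = 1e-07), without overlap. E2f2, the weakest of the 42 starts, rose by 0.71 in KO and 0.60 in WT, and a region in its body rose by 2.15 in KO and 1.86 in WT. A region 5.1 kb upstream of E2f1 had 6.61 ± 0.528 CPM in KO MPP and 5.92 ± 0.685 CPM in WT MPP, against 0.971 ± 0.307 CPM in KO LT-HSC and 1.001 ± 0.146 CPM in WT LT-HSC (SD, n = 3 each). It rose by 2.80 in KO and 2.57 in WT, while the E2f1 start itself rose by 0.15 in KO and 0.33 in WT. The KO call at the E2f1 start was lost in 7 of 23 alternatives, 4 of them leaving out 1 library, and the WT call held under each. E2f3, a further activator, was called in neither genotype at its start, with -0.03 ± 0.05 in KO (SE, edgeR adjusted p = 0.623) and 0.05 ± 0.05 in WT (adjusted p = 0.453).

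Of the 7 cyclin and CDK genes, those of cyclin E, which acts at S phase entry, rose at their starts in MPP. The Ccne1 start (chr7:38107481-38107943) had 59.0, 59.5 and 57.9 CPM in KO MPP and 61.7, 63.1 and 49.0 CPM in WT MPP, against 34.8, 35.3 and 29.6 CPM in KO LT-HSC and 33.1, 36.0 and 29.9 CPM in WT LT-HSC. With 0.82 ± 0.08 in KO (SE, edgeR adjusted p = 1.25e-10) and 0.81 ± 0.08 in WT (adjusted p = 9.34e-11), it was the largest log2 fold change of the 42 starts in both genotypes. The Ccne2 start rose by 0.43 in KO and 0.42 in WT. Ccna2 (cyclin A), Ccnb1 and Ccnb2 (cyclin B), Cdk1 and Cdk2 were called in neither genotype at their starts, with log2 fold changes from -0.06 to 0.12. Ccnb1 had 40.9, 36.2 and 36.2 CPM in KO MPP and 40.4, 37.3 and 36.9 CPM in WT MPP, against 39.8, 38.0 and 39.7 CPM in KO LT-HSC and 33.9, 36.8 and 37.4 CPM in WT LT-HSC, and the populations overlapped. Around Ccne1 the regions moved in opposite directions. One 21.4 kb downstream of the start fell to 9.98 ± 0.656 CPM in KO MPP and 10.3 ± 0.381 CPM in WT MPP, against 22.7 ± 0.804 CPM in KO LT-HSC and 25.1 ± 0.599 CPM in WT LT-HSC (SD, n = 3 each), and one at 17.2 kb rose by 1.61 in KO and 1.78 in WT. A region 46.0 kb upstream of Cdk1 fell, with log2 fold changes of -1.43 in KO and -1.40 in WT.

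Among 8 genes of mitosis, Top2a (the topoisomerase that untangles sister chromatids), Mki67 (the Ki-67 proliferation antigen), Aurka and Aurkb (mitotic kinases) rose at their starts in MPP in both genotypes, and Plk1, Bub1, Cenpa and Cdc20 were called in neither. Mki67 had 41.4, 41.1 and 40.6 CPM in KO MPP and 41.7, 40.7 and 37.8 CPM in WT MPP, against 32.2, 34.5 and 36.3 CPM in KO LT-HSC and 30.1, 31.0 and 29.8 CPM in WT LT-HSC. This was 0.26 ± 0.06 in KO (SE, edgeR adjusted p = 0.000584) and 0.41 ± 0.06 in WT (adjusted p = 1.14e-06), without overlap between populations. Cdc20, the activator of the anaphase-promoting complex, had 45.5 ± 1.49 CPM in KO MPP and 43.5 ± 0.641 CPM in WT MPP, against 48.5 ± 1.502 CPM in KO LT-HSC and 45.3 ± 0.386 CPM in WT LT-HSC (SD, n = 3 each). Its log2 fold change was -0.09 ± 0.06 in KO (SE, edgeR adjusted p = 0.150) and -0.06 ± 0.06 in WT (adjusted p = 0.372). For Plk1, a kinase of mitotic entry, it was 0.13 ± 0.08 in KO (SE, adjusted p = 0.148) and -0.01 ± 0.08 in WT (adjusted p = 0.950).

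The widest population differences lay away from the starts, which held for the whole table too. In WT the quartiles of the log2 fold change were -0.24 and 0.69 over member regions away from gene ends. Over all tested regions away from gene ends they were -0.76 and 0.78, and over gene-end regions in the level range of the starts -0.18 and 0.31. The wider spread is thus not particular to the members. At the 42 starts the called log2 fold changes in WT lay between -0.46 and 0.81. Among the 208 tested regions that are not the gene start, 83 rose and 39 fell in KO, and 82 rose and 38 fell in WT. Of the 178 of these away from gene ends, 69 (38.8%) rose and 36 (20.2%) fell in KO, and 68 (38.2%) and 35 (19.7%) in WT. All tested regions away from gene ends split into 33.7% higher and 34.4% lower in KO and 35.1% and 34.9% in WT. The named member regions that are not the gene start ran from -3.41 to 3.43 on the log2 scale in WT. Between the genotypes, 94 called regions were higher in both, which is 89.5% of the 105 in KO and 89.5% of the 105 in WT, and 35 were lower in both, 87.5% of the 40 in KO and 89.7% of the 39 in WT. Over all tested regions the shared calls were 88.9% of the higher ones in KO and 85.6% in WT, and 89.7% of the lower ones in KO and 87.7% in WT. All 24 regions away from the starts that were named for size in each genotype kept their call under each alternative run. They had been picked as the largest called differences in these same libraries, so this cannot show that such regions are more stable than the starts.

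**Figure D3:**
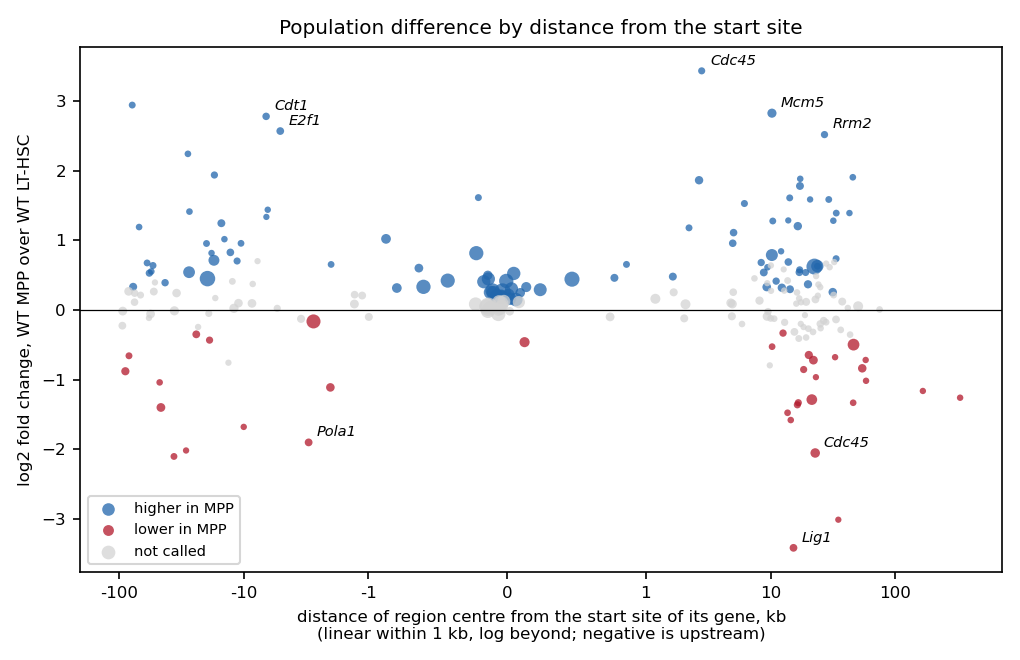
Log2 fold change of WT MPP over WT LT-HSC (y axis) against the distance of each member region from the start site of its gene (x axis, kb, linear within 1 kb), for 231 regions of genes with a known start site. Point area grows with mean CPM, and names mark large differences among regions above the median level: 95 regions were called higher, 35 lower and 101 in neither direction, and the named differences reach -3.41 at Lig1 and 3.43 at Cdc45.

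The second comparison asks whether the same chromatin differs between KO and WT cells. In MPP, 26 of 250 member regions were higher and 11 lower in KO, where 5.12% of all tested regions rose and 3.59% fell. In LT-HSC, 10 were higher and 3 lower, beside 3.27% and 1.47%. At the 42 starts, 11 were higher and 1 lower in KO MPP, and 7 higher and 0 lower in KO LT-HSC. Gene-end regions as a whole had 11.4% higher and 2.38% lower in KO MPP, and 8.05% and 0.970% in KO LT-HSC. Among gene-end regions within the level range of the 42 starts (7.20 to 127 CPM) these shares were 16.6% and 2.19% in KO MPP, and 13.0% and 0.609% in KO LT-HSC. Within that range they were not matched to the starts in level. The starts that were higher are 26.2% of the 42 in MPP and 16.7% in LT-HSC. The median log2 fold change of the starts was 0.10 in MPP and 0.13 in LT-HSC, with 35 of 42 above 0 in each. In KO MPP, 22 starts had all libraries above all WT libraries and 1 had all below, which is 52.4% and 2.38% of the 42, and in KO LT-HSC 25 (59.5%) had all above and 0 below. Among gene-end regions in that level range, 34.7% had all KO libraries above all WT libraries and 7.27% all below in MPP. In LT-HSC it was 35.7% and 4.82%. Over all tested regions it was 14.4% and 13.6% in MPP and 13.4% and 10.8% in LT-HSC.

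Both counts moved with the gene-end share and with single libraries. With that share as a covariate, 1 start was called higher in KO MPP (Plk1) and 0 in KO LT-HSC. In that fit 30 of 42 starts were above 0 in MPP (median 0.0691) and 33 in LT-HSC (median 0.0991). The median of all gene-end regions was 0.0207 in MPP and 0.0227 in LT-HSC. Over all tested regions, calls higher in KO fell from 9542 to 3159 in MPP and from 6093 to 1499 in LT-HSC. In MPP 3 starts were higher without KO MPP replicate 3, 6 without KO MPP replicate 2 and 5 without WT MPP replicate 3. In LT-HSC 3 were higher without WT LT-HSC replicate 3, and 4 without KO LT-HSC replicate 1, KO LT-HSC replicate 2 or WT LT-HSC replicate 1. The level-dependent offset left 6 higher and 2 lower in MPP (median 0.0473) and 3 higher and 1 lower in LT-HSC (median 0.0400).

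**Figure D4:**
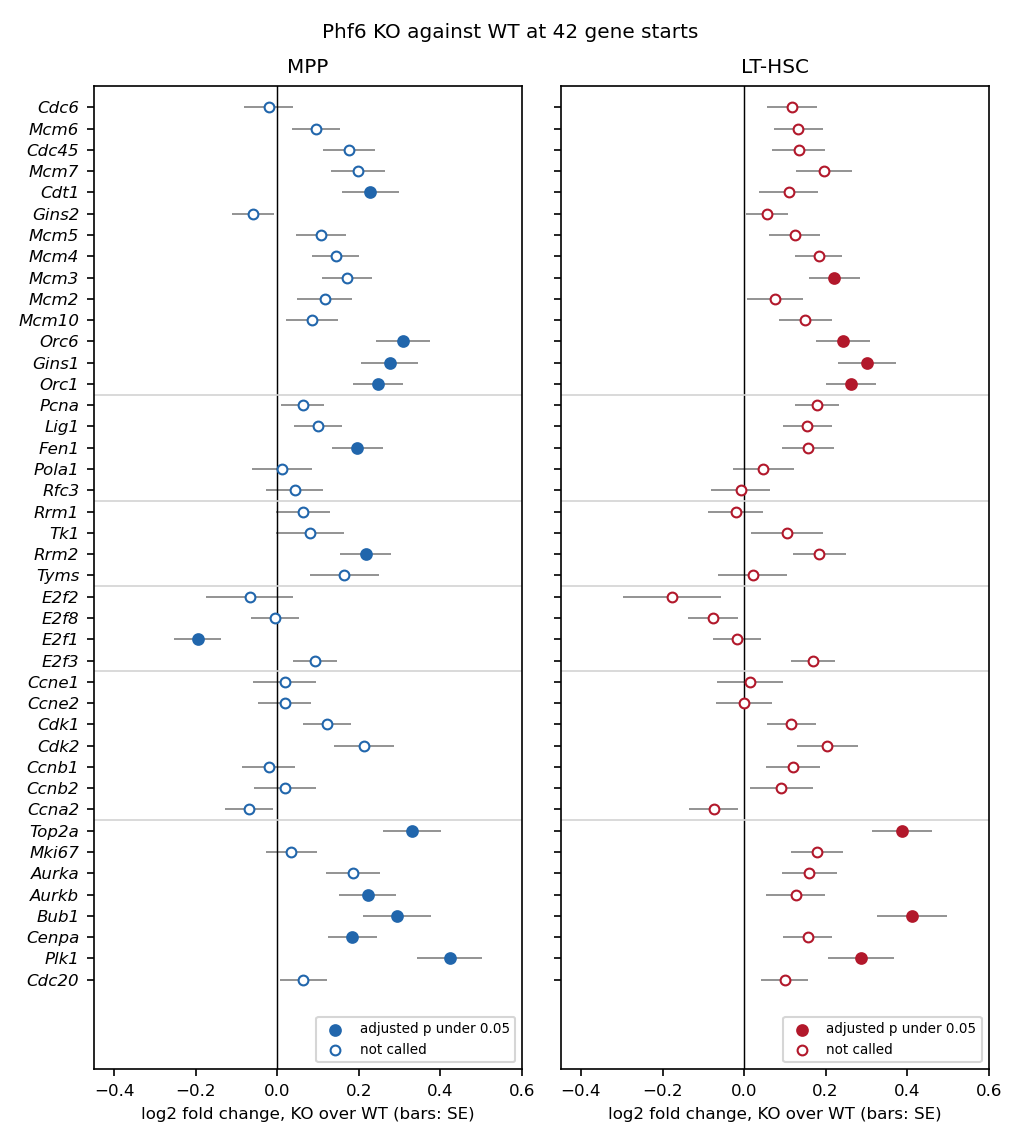
Log2 fold change of KO over WT (points) with its SE (bars) at the 42 gene starts, in MPP (left) and LT-HSC (right), grouped by role. Filled points passed an adjusted p of 0.05: 11 higher and 1 lower in MPP, 7 higher in LT-HSC, with E2f1 the 1 filled point left of 0.

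Of the 8 mitotic starts, 5 (62.5%) were higher in KO MPP and 3 (37.5%) in KO LT-HSC. Of gene-end regions in the level range of the starts, 16.6% were higher in MPP and 13.0% in LT-HSC. Counts by role cover few starts and carry no test. Plk1 (chr7:122159166-122159580) had 20.7, 21.6 and 21.3 CPM in KO MPP, against 14.8, 15.4 and 17.4 CPM in WT MPP, and 20.2, 20.1 and 17.7 CPM in KO LT-HSC, against 16.7, 16.2 and 14.7 CPM in WT LT-HSC. The log2 fold change of KO over WT was 0.42 ± 0.08 in MPP (SE, edgeR adjusted p = 0.00113) and 0.29 ± 0.08 in LT-HSC (adjusted p = 0.0358), and KO and WT did not overlap in either. The MPP call held under each alternative run, whereas the LT-HSC call was lost in 10 of them, with adjusted p up to 0.142, among them those without KO LT-HSC replicates 1 or 2 and without any 1 of the WT LT-HSC replicates. Top2a (chr11:99024061-99024588) had 46.9, 44.1 and 45.9 CPM in KO MPP, against 39.3, 36.0 and 33.4 CPM in WT MPP, and 34.1, 33.9 and 36.7 CPM in KO LT-HSC, against 29.3, 27.2 and 23.4 CPM in WT LT-HSC. It was higher by 0.33 ± 0.07 in MPP (SE, edgeR adjusted p = 0.00397) and 0.39 ± 0.07 in LT-HSC (adjusted p = 0.00242). All KO libraries again lay above all WT libraries, and both calls were lost with the covariate, where adjusted p was 0.12 in MPP and 0.0774 in LT-HSC.

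Bub1, a spindle checkpoint kinase (chr2:127831694-127832116), had 17.9, 16.2 and 18.9 CPM in KO MPP, against 15.2, 15.03 and 12.7 CPM in WT MPP, and 18.9, 18.5 and 17.4 CPM in KO LT-HSC, against 14.0, 14.1 and 13.1 CPM in WT LT-HSC. It was higher by 0.29 ± 0.08 in MPP (SE, edgeR adjusted p = 0.0245) and 0.41 ± 0.09 in LT-HSC (adjusted p = 0.00432), with no overlap in either population. The MPP call was lost without KO MPP replicate 1, KO MPP replicate 3 or WT MPP replicate 3 and with the covariate, where adjusted p was 0.445, and the LT-HSC call with the covariate (0.172). Cenpa (centromeric histone H3 variant) and Aurkb were called in MPP alone, at adjusted p = 0.0464 and 0.0425, and their LT-HSC values were 0.16 ± 0.06 and 0.13 ± 0.07 (log2, SE). Those MPP calls were lost in 15 alternatives at Cenpa and 13 at Aurkb, 9 and 7 of them leaving out 1 library. Mki67 was called in neither population at its start.

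Among the 14 licensing genes, 4 starts (28.6%) were higher in KO in each population. These were Orc1, Orc6 and Gins1 in both, with Cdt1 in MPP and Mcm3 in LT-HSC. Of gene-end regions in the level range of the starts, 16.6% were higher in MPP and 13.0% in LT-HSC. The Cdt1 call (0.23, edgeR adjusted p = 0.0371) was lost in 7 of 22 alternatives, among them without any 1 of the KO MPP replicates. The Mcm3 call (0.22, edgeR adjusted p = 0.0364) was lost in 9 of 22, among them without KO LT-HSC replicates 1 or 2 or WT LT-HSC replicates 1 or 2. Orc6 (chr8:85299342-85299833) had 62.3, 60.5 and 64.7 CPM in KO MPP, against 55.4, 51.3 and 44.6 CPM in WT MPP, and 56.8, 54.7 and 56.2 CPM in KO LT-HSC, against 48.3, 49.6 and 43.9 CPM in WT LT-HSC. The difference was 0.31 ± 0.07 in MPP (SE, edgeR adjusted p = 0.00335) and 0.24 ± 0.07 in LT-HSC (adjusted p = 0.0303). KO libraries lay above WT libraries in both, but the region is shared with the start of Vps35. The MPP call was lost with the covariate (adjusted p = 0.227). The LT-HSC call was lost in 10 alternatives, among them those without any 1 of the KO LT-HSC replicates or without WT LT-HSC replicates 1 or 3, with log2 fold changes down to 0.0958 and edgeR adjusted p up to 0.537. Gins1, a GINS subunit, had 37.2 ± 0.687 CPM in KO MPP, against 30.7 ± 2.28 CPM in WT MPP, and 35.6 ± 1.06 CPM in KO LT-HSC, against 28.9 ± 2.70 CPM in WT LT-HSC (SD, n = 3 each). It was higher by 0.28 ± 0.07 in MPP (SE, edgeR adjusted p = 0.0118) and 0.30 ± 0.07 in LT-HSC (adjusted p = 0.0113). Orc1, whose region is shared with Prpf38a, was higher by 0.25 in MPP and 0.26 in LT-HSC. Both genes lost their calls with the covariate, without KO MPP replicate 3 in MPP and without WT LT-HSC replicate 3 in LT-HSC, and Gins1 also without WT MPP replicate 3 and Orc1 without KO LT-HSC replicate 3. The other starts called in KO MPP were those of Fen1 (shared with Tmem258, 0.20, adjusted p = 0.0460) and Rrm2 (0.22, adjusted p = 0.0287). The Fen1 call was lost in 15 of 22 alternatives, among them without any 1 of the 6 MPP libraries, and the Rrm2 call in 7, among them without KO MPP replicates 2 or 3 or WT MPP replicates 2 or 3.

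Of the 11 starts of E2F, cyclin and CDK genes, 0 were called higher in either population by edgeR with all libraries or by DESeq2. Of gene-end regions in the level range of the 42 starts, 16.6% were higher in MPP and 13.0% in LT-HSC. For so few starts 0 is near those shares, and the count is no result about these genes. E2f3 was called higher in KO LT-HSC with the compared groups alone and without WT MPP replicate 3, and Cdk2 in KO MPP without KO MPP replicate 1. The E2f1 start had 48.7, 47.3 and 44.8 CPM in KO MPP, against 53.2, 55.0 and 52.9 CPM in WT MPP, all KO below all WT, and 43.6, 41.8 and 40.9 CPM in KO LT-HSC, against 42.6, 41.5 and 43.8 CPM in WT LT-HSC, which overlapped. It fell in MPP, with a log2 fold change of -0.20 ± 0.06 (SE, edgeR adjusted p = 0.0300), a call lost in 7 alternatives, those without KO MPP replicates 2 or 3 or WT MPP replicates 1 or 2 among them, and was at -0.02 ± 0.06 in LT-HSC (adjusted p = 0.906). Ccne1, the start that differed most between populations, had 0.02 ± 0.08 in MPP (SE, edgeR adjusted p = 0.915) and 0.01 ± 0.08 in LT-HSC (adjusted p = 0.946).

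Away from the starts, KO MPP had 15 gains and 10 losses among 208 regions, which is 7.21% and 4.81%, and KO LT-HSC had 3 of each (1.44%). Some of the 208 lie at gene ends. Of the 178 tested member regions away from gene ends, 13 (7.30%) rose and 9 (5.06%) fell in KO MPP. All tested regions away from gene ends had 4.02% and 3.80%. In KO LT-HSC 3 (1.69%) rose and 2 (1.12%) fell, beside 2.43% and 1.56%, so the LT-HSC counts are no result about the members. The Mcm6 region 2.0 kb inside the gene (chr1:128357439-128357905) had 5.46, 6.07 and 5.82 CPM in KO MPP, against 3.46, 3.73 and 3.48 CPM in WT MPP, and 5.64, 4.81 and 4.14 CPM in KO LT-HSC, against 4.22, 3.48 and 3.94 CPM in WT LT-HSC. It was higher by 0.70 ± 0.12 in MPP (SE, edgeR adjusted p = 0.000624), without overlap and under each alternative run, and by 0.35 ± 0.13 in LT-HSC (adjusted p = 0.116), where the genotypes overlapped. The Mcm6 start had 0.09 ± 0.06 in MPP (SE, edgeR adjusted p = 0.335). Upstream of Pola1 by 3.0 kb, in the region that fell in MPP, KO MPP was higher than WT MPP by 0.80 ± 0.17 (SE, edgeR adjusted p = 0.00275), with LT-HSC at 0.12 ± 0.13 (adjusted p = 0.655). That call was lost without KO MPP replicate 2. In the Gins1 body a weak region had 3.74, 4.56 and 2.89 CPM in KO LT-HSC, against 2.61, 2.08 and 1.91 CPM in WT LT-HSC, a rise of 0.77 ± 0.17 (SE, edgeR adjusted p = 0.00678), a call lost with the covariate and without KO LT-HSC replicate 2. Around Cdc6, neighbouring intragenic regions differed. The one at 9.4 kb was higher in KO MPP by 0.40, a call lost without KO MPP replicate 3, WT MPP replicate 1 or WT MPP replicate 2. Its LT-HSC value of 0.34 was at the threshold (edgeR adjusted p = 0.0499) and its call was lost in 16 of 22 alternatives, DESeq2 and each fit without 1 of the LT-HSC libraries among them. The one at 10.2 kb was lower in KO MPP, with a log2 fold change of -0.22 ± 0.07 (SE, edgeR adjusted p = 0.0342), and at 0.08 ± 0.07 in LT-HSC (adjusted p = 0.550). That MPP call was lost with the covariate and without KO MPP replicates 2 or 3 or WT MPP replicates 1 or 2. A region 54.3 kb downstream of the Rrm2 start was higher in both populations, by 0.57 in MPP and 0.53 in LT-HSC. Leaving out KO MPP replicates 2 or 3 ended the MPP call, and leaving out KO LT-HSC replicate 1 or WT LT-HSC replicates 2 or 3 the LT-HSC call.

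Losses were fewer. The most open region among them lay 19.5 kb upstream of Mki67 (chr7:135735614-135736095), with 63.1, 61.4 and 61.2 CPM in KO MPP, against 70.4, 76.2 and 79.1 CPM in WT MPP, and 46.9, 49.1 and 47.4 CPM in KO LT-HSC, against 54.9, 51.5 and 58.7 CPM in WT LT-HSC. It fell by a log2 fold change of -0.28 ± 0.06 in MPP (SE, edgeR adjusted p = 0.00276) and -0.20 ± 0.06 in LT-HSC (adjusted p = 0.0433), and all KO libraries lay below all WT libraries in both. The MPP call was lost with the covariate (adjusted p = 0.127). The LT-HSC call was lost in 11 alternatives, among them RLE scaling, the covariate and fits without any 1 of the KO libraries or without WT LT-HSC replicates 1 or 3, with log2 fold changes up to -0.1113. A region 17.3 kb upstream of E2f3 had 20.9, 20.0 and 17.7 CPM in KO MPP, against 24.4, 26.3 and 24.8 CPM in WT MPP. It fell in MPP, with -0.37 ± 0.08 (SE, edgeR adjusted p = 0.00236), under each alternative run, and was at -0.10 ± 0.08 in LT-HSC (adjusted p = 0.529). Both regions were more open in MPP than in LT-HSC in each genotype. In the Rfc3 body a region fell in both populations, with -0.40 in MPP and -0.50 in LT-HSC, and so did a weak region 45.6 kb downstream of the Mcm5 start, with -0.79 in MPP and -1.48 in LT-HSC. All 4 calls were lost with the covariate, both LT-HSC calls also without KO LT-HSC replicate 2, and the Rfc3 calls also without KO MPP replicates 2 or 3 or WT MPP replicate 3 in MPP and without WT LT-HSC replicate 3 in LT-HSC.

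**Figure D5:**
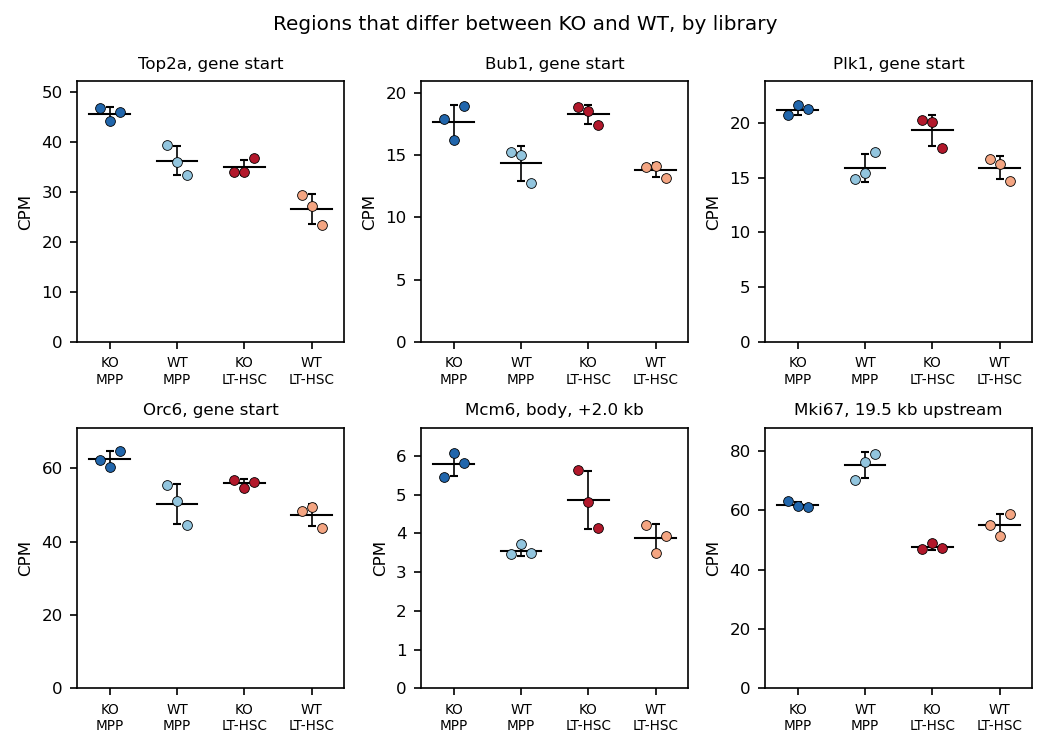
CPM of 6 member regions in each library (points), with the group mean and SD (bars), for KO MPP, WT MPP, KO LT-HSC and WT LT-HSC. The starts of Top2a, Bub1, Plk1 and Orc6 sit higher in KO than in WT in both populations, the Mcm6 body region separates the genotypes in MPP, and the region upstream of Mki67 sits lower in KO in both.

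Of the 26 regions higher in KO MPP, 8 were also higher in KO LT-HSC, which is 30.8% of the 26 and 80.0% of the 10 in LT-HSC. These were the starts of Orc1, Orc6, Gins1, Top2a, Plk1 and Bub1 and regions of Cdc6 and Rrm2. All 3 regions lower in KO LT-HSC were among the 11 lower in KO MPP. Over all tested regions, those higher in both were 29.0% of the higher ones in KO MPP and 45.4% of those in KO LT-HSC, and those lower in both were 12.5% and 30.5%. By edgeR 0 of 250 member regions passed the test of the interaction, that is of a genotype difference that differs between MPP and LT-HSC, and 13 had an unadjusted p under 0.05. DESeq2 also called 0. Among all tested regions 0.00805% passed as higher and 0% as lower. The lists of regions called in 1 population alone are thus not shown to differ between populations. The least adjusted p of the interaction among the named regions, 0.398, was at a region 31.5 kb downstream of the Cdk1 start, which had 4.91, 5.48 and 5.63 CPM in KO MPP, against 6.92, 6.21 and 7.24 CPM in WT MPP, and 6.14, 6.86 and 6.68 CPM in KO LT-HSC, against 5.62, 5.70 and 5.64 CPM in WT LT-HSC. There KO lay below WT in MPP and above WT in LT-HSC.

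Of the 8 starts with an E2F motif, 5 were higher in MPP than in LT-HSC in each genotype, and 0 were higher in KO than in WT in either population. Of the 28 starts without it, 14 were higher in MPP in each genotype, 9 were higher in KO in MPP and 6 in LT-HSC. Of the 10 with TTTGAA, 6 were higher in MPP in each genotype and 1 was higher in KO in each population. Of the 28 with CCAAT, 14 were higher in MPP in each genotype, 7 were higher in KO in MPP and 6 in LT-HSC. These are counts over few promoters and carry no test. Of gene-end regions in the level range of the 42 starts, 39.1% in KO and 41.1% in WT were higher in MPP. The shares higher in KO were 16.6% in MPP and 13.0% in LT-HSC. For so few starts, 0 of 8 with an E2F motif and 1 of 10 with TTTGAA are near those shares, and neither count is a result about these promoters.

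Other genes of the same pathways were counted in the same way. They were listed by function, but with earlier results of these data known, so their counts are no independent support. For 38 other DNA replication genes, 113 of 262 tested regions rose and 57 fell in KO MPP relative to KO LT-HSC, and 119 rose and 61 fell in WT. For 40 other mitosis genes, 94 of 256 were higher and 67 lower in KO, and 105 and 67 in WT. For 19 E2F, RB and MuvB regulators, which control these genes, 57 of 159 were higher and 50 lower in KO, and 52 and 49 in WT. Over the whole table the population split was 33.3% up and 34.4% down in KO, and 34.6% and 35.2% in WT. The shares higher were 43.1%, 36.7% and 35.8% for the 3 lists in KO, and 45.4%, 41.0% and 32.7% in WT. In KO against WT the 3 lists had 16, 20 and 20 regions higher and 6, 9 and 1 lower in MPP, and 14, 17 and 11 higher and 0, 4 and 1 lower in LT-HSC. The shares higher in KO MPP were 6.11%, 7.81% and 12.6%, beside 5.12% over the whole table, and in KO LT-HSC 5.34%, 6.64% and 6.92%, beside 3.27%. The shares lower in KO MPP were 2.29%, 3.52% and 0.629%, beside 3.59%, and in KO LT-HSC 0%, 1.56% and 0.629%, beside 1.47%. At gene ends, 13 of 50 regions of the other mitosis genes were higher and 0 lower in KO MPP, and 11 and 0 in KO LT-HSC. The shares higher were 16.6% and 13.0% of gene-end regions in the level range of the member starts, and 11.4% and 8.05% of all gene-end regions. For the other replication genes it was 8 of 61 (13.1%) higher and 1 lower in KO MPP, and 8 (13.1%) and 0 in KO LT-HSC, close to those shares.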

How the data were processed

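The authors deposited 1 table with raw read counts over a shared set of regions, 12 libraries side by side. Among the tools in the submitters' processing notes are DESeq2 1.22.1, featureCounts, MACS2 2.1.1, Bowtie2 and cutadapt, with GRCm38 as build. Order, settings, filters and duplicate handling were not given. Regions (402 to 3503 bp) were placed against RefSeq genes of GRCm38.p6. A model with 1 mean per group was fitted to all 12 libraries in edgeR 4.0.16 (R 4.3.3) with TMM scaling and filterByExpr, which left out 1889 regions. P-values of the 2-sided quasi-likelihood F test were adjusted by Benjamini-Hochberg over all tested regions. The biological coefficient of variation was 8.18%. CPM are counts over the scaled library size, and log2 fold changes are those of the edgeR fit at its default setting. A prior count of 2 entered the log2 CPM behind the correlations between libraries and the level-dependent offset, not the fold changes. In data simulated for KO against WT in LT-HSC (186088 regions tested), 188 of 200 regions changed 2-fold were called, and so were 16 others. The changed regions were drawn from those with high counts, and all regions had the same simulated spread. These figures therefore do not carry over to smaller changes or weaker regions.

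The members and gene lists were chosen with earlier results of these data known. Regions named in the text are the 42 gene starts, member regions called in a genotype comparison, and, for MPP against LT-HSC, the 12 called regions that rose most and the 12 that fell most above the median level of 1.83 CPM. Replicates are separate mice per the labels' wording on LT-HSC, and for MPP p-values may measure a technical spread. Alternatives were other scalings, filters, DESeq2 1.42.0, a replicate block, the gene-end share as a covariate, nearer assignment, a stricter threshold and leaving out each library. A correction for GC content was not run.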

Additional observations from a re-analysis of the deposited data

How the results depend on the processing

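In the population comparisons the 145 calls in KO and 144 in WT ranged from 132 to 149 and from 127 to 144 on leaving out 1 library. They moved past 1.5 times in KO when the gene-end share entered as covariate (93). With assignment to the gene body or within 1 kb they were 78 in KO and 80 in WT. This nearer assignment leaves out the member regions farther away and changes no single call. Its lower counts, here and below, therefore come from a smaller set of regions. The genotype calls depended more on the processing. The 37 in MPP were 9 to 41 on leaving out 1 library, 12 with the covariate, 13 at an adjusted p under 0.01 and 22 with the nearer assignment. The 13 in LT-HSC were 5 to 18 on leaving out 1 library, 1 with the covariate and 3 at the stricter threshold. KO MPP replicate 3 (9 calls without it) and replicate 2 (16), WT MPP replicates 1 (24) and 2 (20), KO LT-HSC replicates 1 (8) and 2 (5) and WT LT-HSC replicates 1 (8) and 3 (6) each moved a count past 1.5 times. Regions called in the genotype comparisons and kept under each alternative numbered 3 of 37 in MPP (the Plk1 start, the Mcm6 body region and the region upstream of E2f3) and 0 of 13 in LT-HSC. The interaction had 0 calls among members under each alternative.

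Of the starts called between MPP and LT-HSC, the direction turned at 5: with the level-dependent offset at Pcna in KO (-0.0095), Mcm4 in WT (-0.0011) and Gins2 in WT (-0.0430), and with the covariate at Orc6 in KO (-0.0871) and Cdt1 in WT (-0.0042). Over all 42 starts, called or not, those above 0 numbered 27 in KO and 26 in WT with the level-dependent offset, against 34 and 38 without it, and those called lower 7 in KO and 6 in WT, against 1 and 1. The cause was not tested. Replicate numbers are not shown to pair KO with WT libraries, as same-numbered ones correlated at -0.0367 to 0.033. Same-numbered LT-HSC and MPP libraries of 1 genotype correlated at 0.0536 to 0.114, and those of other numbers at -0.0781 to -0.00634. Each library thus correlated best with its own number across populations, and whether an animal or a batch was shared is not given. The main fit does not use this pairing. With the replicate block the calls were 43 in KO MPP against WT MPP, 17 in KO LT-HSC against WT LT-HSC, 150 between populations in KO and 147 in WT, and no genotype call was lost. With a block for each genotype and number they were 155 in KO and 152 in WT. DESeq2 called 29, 12, 140 and 132 in the same order as the first block. Duplicates cannot be seen in a count table.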
